A study of Homo sapiens with 3 samples.

Results

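A set of genes tied to androgen responses of prostate cells is read here: KLK3, KLK2, TMPRSS2, FKBP5, TPD52, TMEFF2, ALDH1A3 and HOXB13. The term target genes below names this set and does not state that androgens induce each member, HOXB13 among them. Genes were chosen by symbol from the count table. Of these 8 symbols, 7 had a row among 15466 gene symbols, and 6 of the 7 passed the filter on low counts, which 8823 symbols passed in all. The level of KLK3, which encodes prostate-specific antigen, was not analysed here, and only its upstream sequence is shown.

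The cells were 22Rv1, an established human prostate cancer cell line, grown in medium with serum. The transfection lasted 48 h and used 20 μg of plasmid for MLPH transcript V1 or MLPH transcript V4, with empty vector as the control. MLPH encodes melanophilin, an adaptor in vesicle transport. The series has 3 samples, 1 per group, and poly(A) RNA was sequenced. Only the V1 and V4 libraries were used, because the third column of the table carries a name that ties it to no single sample. The control was therefore not analysed here, and every difference below is between both MLPH transfections. Since a group is 1 library, there is no test over samples and no replicate check. Each ratio describes a pair of libraries. Its 95% exact (Clopper-Pearson) conditional binomial interval covers only counting error, as amplified copies of a molecule were not told apart.

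Androgens act on genes through steroid receptor signalling. A steroid receptor is held ready by HSP90 chaperones and FKBP co-chaperones, binds its hormone, moves to the nucleus and binds response elements, pairs of hexamer sites related to AGAACA, often opened by the pioneer factor FOXA1. In luminal prostate cells androgens raise the secreted kallikreins, the protease TMPRSS2 and FKBP5.

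The 2 libraries had 9253399 (V1) and 9609381 (V4) counts. Levels are given as CPM, counts scaled to the library total. A count of 0 (with a floor of 3 counts) allows 0.324 CPM in V1 and 0.312 CPM in V4. Of 9 luminal prostate markers, 6 had a row. The luminal keratin gene KRT8 had 2085 counts in V1 and STEAP2 had 43, while MSMB had 2 counts and SLC45A3 had 1. The V1 library stood apart in some genes of other cells. The 4 fibroblast and smooth muscle markers with a row summed to 167 CPM in V1 and 5.0 CPM in V4, with COL3A1 and PDGFRB at 0 counts in V4. The V1 sum rested on the collagen genes COL1A2 and COL3A1, while LUM, a matrix proteoglycan gene, had 33 counts in V1 and 44 in V4 and made up 4.58 CPM of the V4 sum. The 9 genes with a row from a list of 12 known from androgen receptor-negative prostate carcinoma lines summed to 349 CPM in V1 and 65.6 CPM in V4. Of the 8 kept, 6 were called lower in V4, against 7.10% of all kept genes. Leukocyte markers (10.1 and 6.76 CPM) and endothelial markers (0.108 and 1.14 CPM) were low in both, with PTPRC, CD3E and CDH5 at 0 counts in each. Basal markers summed to 1.62 and 1.77 CPM, and neuroendocrine markers to 461 and 503 CPM, with INSM1 among their members at 0 counts in each. In bulk RNA, fewer cells of a type and less RNA per cell cannot be told apart.

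Some counts lie far below what cultured cells are known to hold, so a low count is not read here as a low mRNA level. HSP90AB1, a constitutive HSP90 gene that is abundant in growing cells, had 4 counts in V1 and 2 in V4. STIP1, its co-chaperone, had 2 and 3 counts, and the mitotic ubiquitin-conjugating enzyme gene UBE2C had 0 in both. The sources used here do not say how the counting handled reads shared by genes or transcripts, and its part in these values was not tested.

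**Figure D1:**
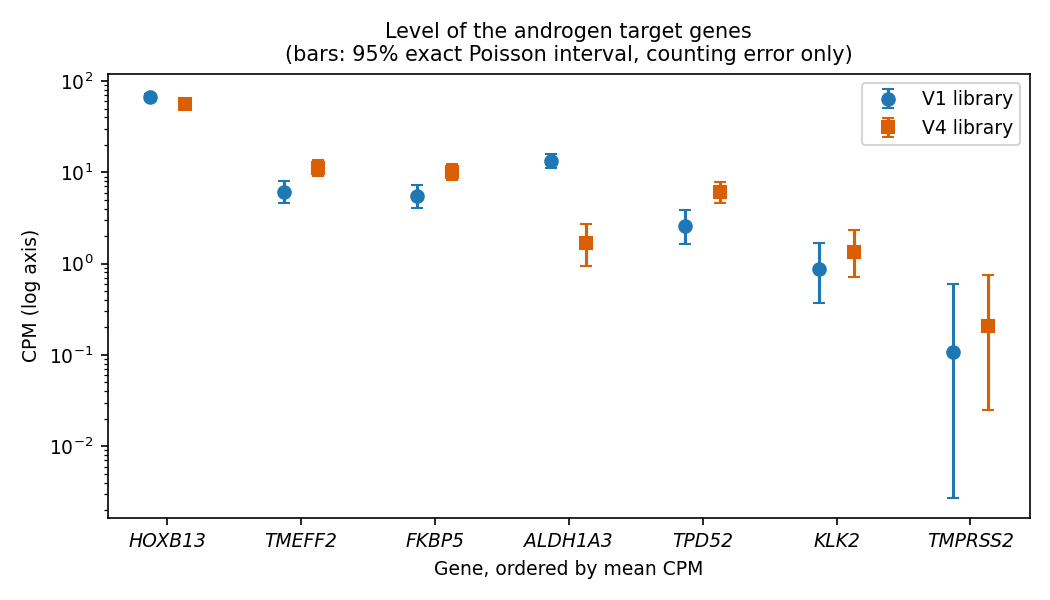
Level of the 7 target genes in CPM on a log axis, V1 as circles and V4 as squares, with bars for the 95% exact Poisson interval of the count. HOXB13 lies above 50 CPM in both libraries, ALDH1A3 stands at 13.3 CPM in V1 and 1.67 CPM in V4, and TMPRSS2 rests on 1 and 2 counts.

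Among the 6 kept target genes, 3 were higher in V4, 1 was lower and 2 were neither. Called means a ratio of at least 1.5-fold after a prior count of 2 is added, with an interval that excludes 1. Over all kept genes 5.51% were called higher in V4 and 7.10% lower. Among the 3600 kept genes with a mean of 1 to 10 CPM, where each of the 4 called target genes lay, the shares were 9.58% and 12.9%. The genes were chosen with these ratios known, so nothing is read from their count against those shares.

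FKBP5, a co-chaperone of steroid receptors that is induced by androgens and by glucocorticoids, had 51 counts (5.51 CPM) in V1 and 98 counts (10.2 CPM) in V4. It was 1.90-fold higher in V4 (interval 1.34 to 2.71). TMEFF2, a transmembrane protein with follistatin-like and EGF-like domains found in prostate and brain, had 57 counts (6.16 CPM) in V1 and 108 counts (11.2 CPM) in V4. Its ratio was 1.87 (interval 1.34 to 2.62), close to that of FKBP5. TPD52, a vesicle-trafficking protein overexpressed in prostate cancer, had 24 counts (2.59 CPM) in V1 and 59 counts (6.14 CPM) in V4. It was 2.42-fold higher in V4 (interval 1.49 to 4.08), at percentile 98.8 of all kept ratios. For each of these 3 genes the level intervals of the libraries did not overlap, and the lower bound of each ratio lay below 1.5.

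ALDH1A3, which makes retinoic acid from retinal and is androgen-induced in prostate cells, went the other way. It had 123 counts (13.3 CPM) in V1 and 16 counts (1.67 CPM) in V4, 7.79-fold lower in V4 (interval 4.61 to 14.1). The gap placed it at percentile 0.907 of all kept ratios. Of the fibroblast and smooth muscle markers 2 of 3 kept were also called lower in V4. Of the genes of androgen receptor-negative lines 6 of 8 were, against 7.10% of all kept genes. Both lists were chosen with earlier results of these data known, so nothing is read from these counts. COL1A2, a fibrillar collagen gene, had 976 counts in V1 and 4 in V4, and COL3A1 had 526 and 0. In the second list, KRT7, a simple-epithelium keratin, had 306 and 32 counts, ANXA1 had 763 and 234, and LCN2 had 1359 and 6. LUM and CD44, a hyaluronan receptor gene with 22 and 28 counts, did not share that direction, with ratios of 1.32 (interval 0.82 to 2.13) and 1.26 (interval 0.69 to 2.30) that were not called. The part of these genes in the ALDH1A3 value was not tested.

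HOXB13, a homeodomain factor that marks prostate epithelium and takes part in androgen responses, was the most abundant of the target genes. It had 621 counts (67.1 CPM) in V1 and 536 counts (55.8 CPM) in V4. Its ratio of 0.85 had an interval from 0.76 to 0.96, so the counting interval excluded 1 while the gap stayed under 1.5-fold. KLK2, a secreted kallikrein close to KLK3 in sequence, had 8 counts in V1 and 13 in V4, a ratio of 1.60 with an interval from 0.62 to 4.46. TMPRSS2, a membrane serine protease and the 5′ partner of the common ERG fusion, had 1 count in V1 and 2 in V4. Its ratio of 1.97 had an interval from 0.10 to 116.4. Differences in KLK2 and TMPRSS2 were not detectable at these counts.

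**Figure D2:**
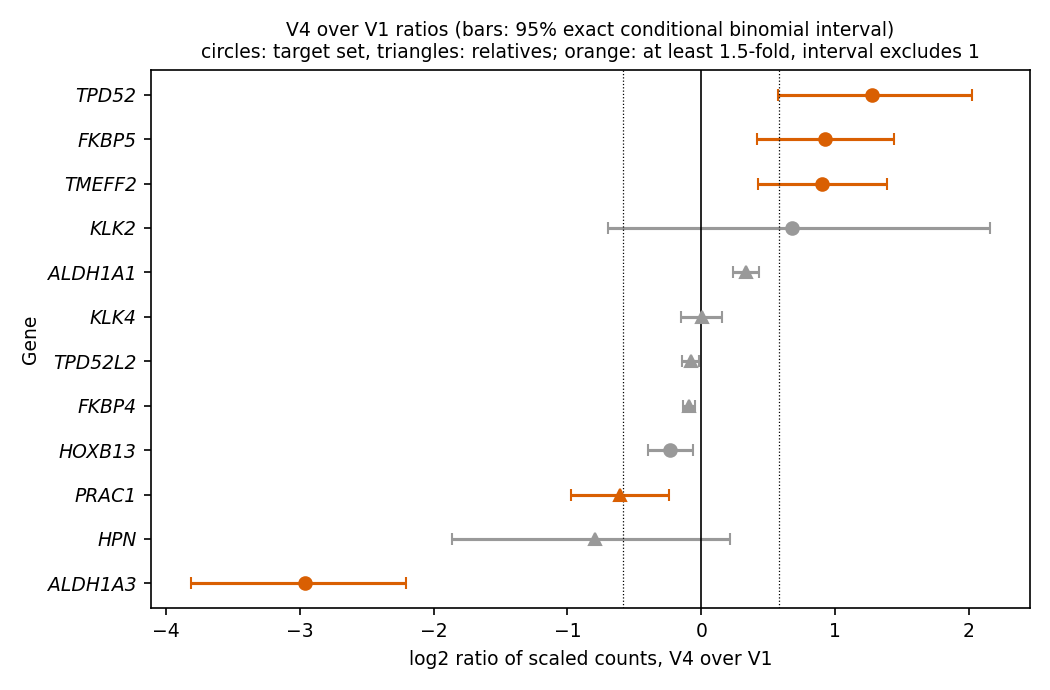
Log2 ratio of scaled counts, V4 over V1, for the 6 kept target genes and 6 relatives, with bars for the 95% exact conditional binomial interval. Dotted lines mark 1.5-fold and orange marks called genes. FKBP5, TMEFF2 and TPD52 lie to the right, ALDH1A3 lies farthest to the left, and the interval of KLK2 spans both sides.

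The 3 genes higher in V4 shared a low GC content, which was not used to choose them. The longest transcript was 41.5% GC for FKBP5, 37.2% for TPD52 and 31.9% for TMEFF2, against a median of 49.0% over kept genes. ALDH1A3 stood at 51.3% and HOXB13 at 57.3%. Genes of low GC as a class were higher in V4. The median log2 ratio was 0.15 in the bottom quartile of kept genes by GC and -0.18 in the top quartile. FKBP5 was also long, at 7384 bases against a median of 3386 over kept genes, and the median log2 ratio was 0.15 in the top quartile by length and -0.13 in the bottom quartile. With the GC trend removed, the log2 ratio of FKBP5 went from 0.90 to 0.78, that of TMEFF2 from 0.88 to 0.67 and that of TPD52 from 1.21 to 1.03. With the length trend removed these were 0.72, 0.87 and 1.16. All 3 kept their call under each correction, and ALDH1A3 stood at -2.81 and -2.85.

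Per kilobase of the longest transcript, HOXB13 was highest at 19.4 CPM per kb in V1 and 16.1 in V4. In V1 the order went on with ALDH1A3 (3.39), TMEFF2 (1.83), FKBP5 (0.75), TPD52 (0.60), KLK2 (0.29) and TMPRSS2 (0.03). In V4, TMEFF2 (3.34) was next, then TPD52 (1.42), FKBP5 (1.38), KLK2 (0.45), ALDH1A3 (0.42) and TMPRSS2 (0.06). FKBP5 and TPD52 were not separated by their Poisson intervals in either library, nor were KLK2 and ALDH1A3 in V4. TPD52 and KLK2 overlapped in V1, as did KLK2 and TMPRSS2 in V1, where the interval of KLK2 began at 0.124 and that of TMPRSS2 ended at 0.186. These levels assume the longest transcript and bear the limit on low counts given above.

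**Figure D3:**
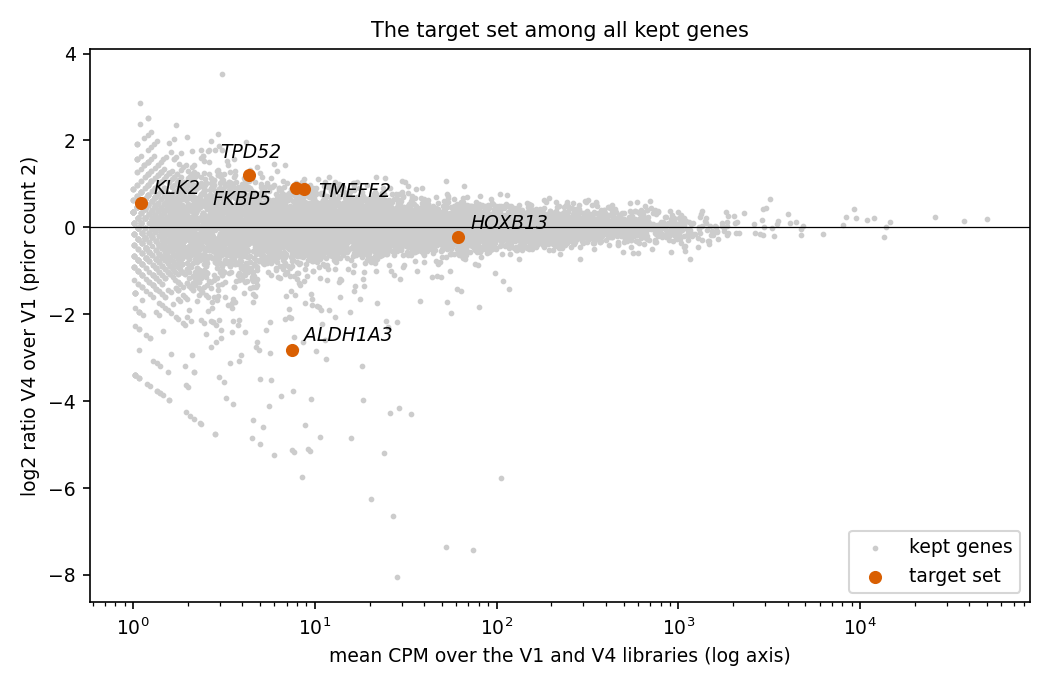
Mean CPM over both libraries (log axis) against the log2 ratio V4 over V1 for 8823 kept genes in grey, with the 6 kept target genes in orange. FKBP5, TMEFF2 and TPD52 lie near the upper edge of the cloud at their level, and ALDH1A3 lies among the scattered points below it.

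Upstream sequence is shown for the genes that differed and for the kallikreins because response elements and general promoter motifs can be read there. RefSeq windows (GRCh38.p14) were found for 5 of the 8 symbols. In KLK3 and KLK2 the capitals mark a looser, kallikrein-type form of the androgen response element, searched as GAACANNNNGTNCT on both strands. Because that pattern follows the kallikrein element, its match in these genes is no test. In FKBP5, TMEFF2 and ALDH1A3 the capitals mark GGGCGG (the GC box) and CCAAT on both strands, which overlap each other in no window shown, although adjacent GC boxes of ALDH1A3 share a base. The kallikrein stretches lie at chr19:50854725-50854784 (KLK3) and chr19:50873243-50873302 (KLK2) on the plus strand, and the others end at the base before the start site. These are chr6:35688916-35689165 (FKBP5, minus strand), chr2:192194934-192195183 (TMEFF2, minus strand) and chr15:100879581-100879830 (ALDH1A3, plus strand), all written 5′ to 3′ along the gene.
KLK3: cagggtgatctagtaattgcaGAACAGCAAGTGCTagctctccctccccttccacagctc
KLK2: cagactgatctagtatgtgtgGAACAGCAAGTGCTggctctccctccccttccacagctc
FKBP5: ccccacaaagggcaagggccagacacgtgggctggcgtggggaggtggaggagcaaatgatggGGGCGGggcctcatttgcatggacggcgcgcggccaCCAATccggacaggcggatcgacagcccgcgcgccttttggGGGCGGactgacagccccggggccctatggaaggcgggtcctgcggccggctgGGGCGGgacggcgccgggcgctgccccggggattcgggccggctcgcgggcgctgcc
TMEFF2: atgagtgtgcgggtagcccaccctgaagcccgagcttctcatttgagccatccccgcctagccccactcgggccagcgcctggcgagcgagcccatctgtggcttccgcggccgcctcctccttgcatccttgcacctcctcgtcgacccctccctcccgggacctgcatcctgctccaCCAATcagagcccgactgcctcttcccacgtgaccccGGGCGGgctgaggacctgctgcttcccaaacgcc
ALDH1A3: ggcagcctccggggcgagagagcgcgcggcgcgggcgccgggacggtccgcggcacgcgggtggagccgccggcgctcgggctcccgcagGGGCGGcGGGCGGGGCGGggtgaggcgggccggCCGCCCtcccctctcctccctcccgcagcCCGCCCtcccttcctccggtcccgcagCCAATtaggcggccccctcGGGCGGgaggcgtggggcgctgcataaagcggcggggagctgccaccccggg

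The kallikrein element began 169 bases before the start site in KLK3 and 175 bases before it in KLK2. Extended by 1 base at its 5′ end to 15 bases, it differed between the genes by A1G alone (KLK3 base first, counted from the 5′ end of the element). The upstream windows of both genes were 89.5% identical over 219 aligned bases. That motif was in 0.216% of all 35116 upstream windows of 250 bases, and the full palindrome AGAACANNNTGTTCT in 0.00285%. Neither was in the windows of FKBP5, TMEFF2 or ALDH1A3, which says only that these letters are absent from those windows. FKBP5 held 3 GC boxes and 1 CCAAT, TMEFF2 held 1 of each, and ALDH1A3 held 6 GC boxes and 1 CCAAT. A GC box was in 42.6% of all windows and CCAAT in 32.0%, so genes on either side of the comparison carried the same common letters. An upstream start of FKBP5 has a second window, which held no match to any of the motifs searched.

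Other genes of the pathway came from 15 lists, which held 99 kept genes beside the target set. Of these 99, 1 was called higher in V4 (1.01%) and 5 lower (5.05%), against 5.51% and 7.10% over all kept genes. The lists share genes, and they were chosen with earlier results of these data known. The median log2 ratio over all kept genes was -0.00.

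Receptor chaperones and coregulators were mostly not called, which does not mean unchanged. Of 16 kept members of their list, 1 was higher in V4, 0 were lower and 15 were neither, with a median log2 ratio of 0.08. NCOA3, a p160 coactivator, had 13 counts in V1 and 34 in V4, 2.58-fold higher (interval 1.33 to 5.33). The co-chaperone DNAJA1, the highest of the list per kilobase, had 13779 and 13320 counts, a ratio of 0.95 (interval 0.93 to 0.98). FOXA1 had 5861 and 6205 counts. FKBP4, a co-chaperone that promotes steroid receptor activity, had 8767 and 8341 counts, a ratio of 0.94 (interval 0.91 to 0.97).

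Other androgen-induced genes had 17 kept members of 34 on the list, with 0 called in either direction and a median of 0.10. The metalloreductase gene STEAP1 had 718 counts in V1 and 596 in V4. KLK4, a kallikrein paralog under androgen control, had 700 and 712 counts, a ratio of 1.00 (interval 0.90 to 1.12). The lack of a call in these 17 genes does not set all of them apart from FKBP5, TMEFF2 and TPD52. MAF had 7 and 16 counts (ratio 2.25, interval 0.88 to 6.48), and ZBTB10 had 22 and 37 (ratio 1.66, interval 0.95 to 2.95). Both intervals include 1 as well as the ratios of FKBP5 and TMEFF2. STEAP1 lay on the other side, with a ratio of 0.82 (interval 0.73 to 0.91).

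Androgen-repressed genes had 3 kept members of 10, with 0 called and a median of 0.40. The androgen-conjugating enzyme genes UGT2B15 and UGT2B17, near-identical copies whose reads may be shared, had 630 and 131 counts in V1 and 815 and 176 in V4. Their ratios were 1.28 (interval 1.15 to 1.42) and 1.33 (interval 1.05 to 1.67). Mitotic genes on a list linked to receptor splice variants had 3 kept members of 7, with 0 called and a median of 0.28. The spindle checkpoint kinase gene BUB1B had 422 and 519 counts, a ratio of 1.21 (interval 1.06 to 1.38). Genes of steroid synthesis and breakdown had 12 kept members of 27, with 0 called and a median of -0.14. POR, the electron donor of steroid-making cytochromes, had 3214 and 2743 counts (ratio 0.84, interval 0.80 to 0.89).

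FKBP5 also answers to the glucocorticoid receptor. The part of that receptor in the FKBP5 ratio was not tested. NR3C1, the gene of that receptor and the 1 kept gene of 5 on the list of other steroid receptors, had 91 counts in V1 and 96 in V4. Of 6 kept glucocorticoid targets, FKBP5 was higher in V4 and 1 was lower, with a median of 0.07. The lower gene, CEBPD, encodes a transcription factor of the acute phase response and had 373 and 207 counts, 1.83-fold lower in V4 (interval 1.54 to 2.18). The MAP kinase phosphatase gene DUSP1 had 3407 and 3569 counts, and TSC22D3, a glucocorticoid-induced leucine zipper, had 195 and 210.

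**Figure D4:**
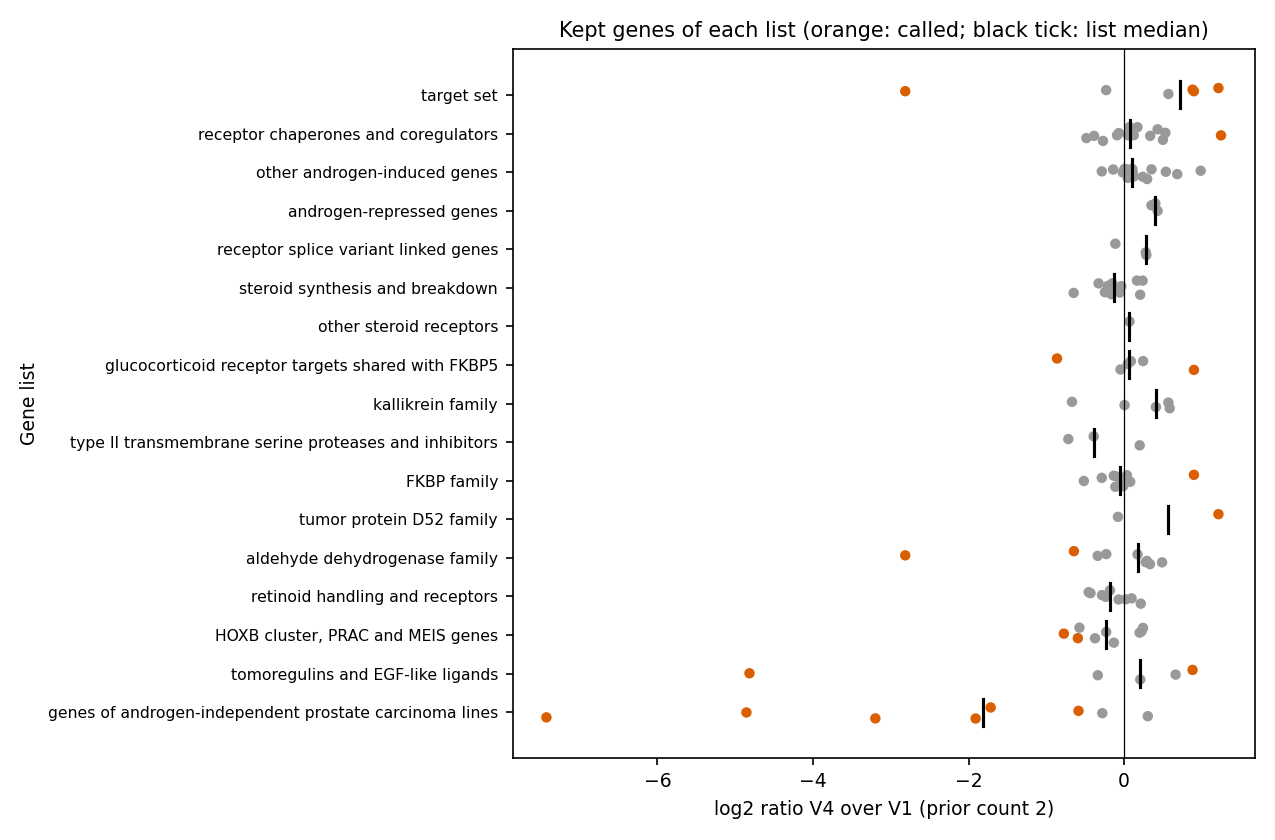
Log2 ratio V4 over V1 (prior count 2) of the kept genes in each list, with called genes in orange and list medians as black ticks; vertical jitter has no meaning. The target set spreads from -2.81 to 1.21, while all 17 kept androgen-induced genes in their row are grey. The row labelled androgen-independent holds the list of androgen receptor-negative lines.

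Most relatives of the target genes were not called. Among 10 kept FKBP genes, FKBP5 was the 1 called. FKBP3, the highest of them per kilobase, had 3970 and 4248 counts. In the kallikrein family 5 of 15 genes were kept and 0 were called. KLK1 had 56 and 76 counts, KLK14 42 and 26, and KLK15 23 and 36. TPD52L2, a paralog of TPD52, had 4274 and 4099 counts (ratio 0.95, interval 0.91 to 0.99), and TPD52L1 had 1 and 9 (ratio 8.88, interval 1.23 to 389), below the filter. Of the type II transmembrane serine proteases and inhibitors, 3 of 16 were kept and 0 called. Matriptase, ST14, had 1727 and 2011 counts, and hepsin, HPN, 24 and 14 (ratio 0.58, interval 0.28 to 1.16).

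The aldehyde dehydrogenase family had 9 kept members, with 2 lower in V4, ALDH1A3 among them, and a median of 0.17. ALDH1B1, a mitochondrial member, had 387 and 250 counts, 1.57-fold lower in V4 (interval 1.34 to 1.85). ALDH1A1, a cytosolic retinal dehydrogenase, had 1489 and 1901 counts, 1.26-fold higher (interval 1.18 to 1.35). ALDH1A2 had 0 and 2 counts. ALDH9A1, the highest of the family per kilobase, had 2669 and 3048. Genes of retinoid handling and the retinoid receptors had 9 kept members of 21, with 0 called and a median of -0.18. RDH14, a retinal reductase, had 230 and 191 counts. The gap in ALDH1A3 was not matched by a call among those 9 genes.

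The HOXB cluster with the PRAC and MEIS genes had 9 kept members, with 0 higher and 2 lower in V4 and a median of -0.23. PRAC1, a small nuclear protein gene next to HOXB13 and the highest of the list per kilobase, had 159 and 106 counts, 1.52-fold lower in V4 (interval 1.18 to 1.96). HOXB4 had 47 and 27 counts, 1.76-fold lower (interval 1.08 to 2.95). In the list of TMEFF genes and EGF-like ligands, 5 of 12 genes were kept, with TMEFF2 higher and 1 lower. EREG, the epiregulin gene, was the lower one, with 193 counts in V1 and 5 in V4, 39.1-fold lower (interval 16.5 to 122). AREG, the amphiregulin gene, had 3859 and 3092 counts. TMEFF1, the paralog of TMEFF2, had 1 and 0 counts.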

How the data were processed

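The deposited values are whole-number read counts per gene symbol that the authors made from poly(A) reads. The submitters' processing notes name hg19 as the build. The sources used here name no aligner, counting program, annotation or strand setting, and do not say whether the technical replicate mentioned in the series' text was summed into these columns. Count columns were matched to samples by their names, which left 1 column out of use. Repeated symbols (21) were summed, and 22 rows named by a calendar date were set aside. The filter was a mean of at least 1 CPM over both libraries. Libraries were scaled by TMM (edgeR 4.0.16, R 4.3.3; factors 1.01 for V1 and 0.988 for V4). Intervals came from scipy 1.17.1, trends from lowess (statsmodels 0.14.6, fraction 0.3) on length and GC of the longest GENCODE v29 transcript, known for 91.5% of kept genes, and alignment from Biopython 1.88. The procedure was tested on simulated data. Printed folds carry no prior count, and log2 ratios carry a prior count of 2.

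The members and lists were chosen with earlier results of these data known. Named in the text are all members, their paralogs, and from each list the highest gene per kilobase and up to 4 called genes. HSP90AB1, STIP1, UBE2C, FOXA1, GRHL2, DNAJB1, STEAP1, STEAP2, MAF, ZBTB10, UGT2B17, TSC22D3, KLK1, KLK14 and KLK15 were added after their values were seen. So were LUM, CD44, the markers MSMB and SLC45A3 and the markers at 0 counts. Some genes this rule takes are left out of the text. Alternatives covered scaling (DESeq2 1.42.0 median of ratios, total counts, upper quartile), filters, prior counts, the fold limit, the interval condition, thinning, length and GC trends, and mitochondrial genes.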

Additional observations from a re-analysis of the deposited data

How the results depend on the processing

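The log2 ratios of the members kept their sign and stayed inside their counting intervals under every alternative that gave a value, with ranges from 0.72 to 0.92 for FKBP5, 0.67 to 0.90 for TMEFF2, 1.03 to 1.26 for TPD52, -2.92 to -2.46 for ALDH1A3, 0.38 to 0.65 for KLK2 and -0.27 to -0.12 for HOXB13. The calls of 3 members higher in V4 and 1 lower did not hold under the stricter limits. At 2-fold, 1 member was higher (TPD52) and 1 lower. At a mean CPM of at least 10, 0 were higher and 0 lower, because HOXB13 was the 1 member left, and the others gave no value. TMPRSS2 entered only without a filter, at 0.41. Over all kept genes the 486 higher and 626 lower became 138 and 162 at a mean CPM of at least 10, and 186 and 379 at 2-fold.

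Of the genes in the pathway lists, 1 was higher and 5 were lower in V4. The lower count was 8 with total counts, with no filter and with no condition on the interval, and 1 at 2-fold. The higher count was 3 with no filter, 5 with no condition on the interval, 2 with the length trend removed, 2 with the GC trend removed and 0 at a mean CPM of at least 10. Where scaling or a trend moved a count, the cause was not tested. No paired analysis was possible because each group had 1 library. Low counts limit KLK2 and TMPRSS2 most, and the parts of depth and of read counting in them were not tested. At 0 counts levels up to 0.324 CPM (V1) and 0.312 CPM (V4) remain possible by counting error.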
